A study of Mus musculus with 10 samples.

Results

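The 7 genes described here belong to the tendon and ligament lineage and were followed through 10 RNA sequencing libraries of sorted mouse skeletal cells. They were 7 of the 15078 genes with a value, and every gene of the list was found. The list was Scx, Mkx, Tnmd, Thbs4, Comp, Cilp and Cilp2. Thbs4 and Cilp were chosen by their measured values, since they had been seen among the largest differences between graft BM-MSCs and P-SSCs, and the other 5 were added as genes of the same lineage. The values of Thbs4 and Cilp are therefore a description and no test was made of them, and no gene of the list was tested between graft BM-MSCs and P-SSCs.

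Tendons and ligaments join muscle to bone and bone to bone, and their cells embed in the outer surface of the bone where fibres insert into the periosteum. Scx and Mkx encode DNA-binding proteins that drive the tendon program in the embryo. Tnmd encodes a membrane glycoprotein of mature tendon cells and is a widely used marker of them. Thbs4 and Comp encode large secreted proteins of the thrombospondin family that bind collagen and other matrix proteins. Cilp and Cilp2 encode secreted matrix proteins named after the intermediate layer of cartilage. Neither the thrombospondins nor the Cilp proteins are found in tendon only, and Comp is also a classical cartilage protein.

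The P-SSC libraries (n = 3) came from CD51+CD200+ skeletal stem cells of the periosteum of wild-type, untreated mice at steady state. The BM-MSC libraries (n = 3) came from the bone marrow of mice of the same genotype, also untreated, and from mesenchymal stem cells of the same CD51+CD200+ sort. The graft BM-MSC libraries (n = 4) came from CD51+CD200+ cells that were Tomato-positive as well, in the marrow of femurs of Postn Cre-ER;tdTomato mice (labelled POSTN-CRE), 5 months after these femurs were placed in wild-type recipients. The labels give tamoxifen induction as their treatment, and by the methods it was given to the recipients after transplantation. The graft group thus differs from the steady-state groups in genotype, tamoxifen, surgery and time as well as in origin. Cre was driven by the Postn promoter, which by the study's account is active in periosteal cells but also in other cell types. BM-MSC 2+4 and P-SSC 2+5 each hold the RNA of 2 mice in 1 library, and the labels give no ages. By the methods replicates came from distinct mice. The 6 steady-state libraries are labelled as re-analysed from earlier deposits and the 4 graft libraries are not.

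Libraries held 15415421 to 25223295 reads. Genes with at least 1 read numbered 9308 to 11674 in graft libraries and 12217 to 13341 in the others. Of the genes whose normalized count reached 100 in all remaining libraries of their group, 0.898 to 8.78% were at 0 in a graft library, with the highest share in graft BM-MSC 2, against 0.363% at most in any steady-state library. By counting error alone a value of 0 allows up to 3 reads, or 0.119 to 0.195 ppm of the reads of a graft library. Libraries also differed in how they read GC-rich genes. The median deviation of 51 genes over 65% GC, set against that of 6033 genes of 50 to 60% GC, was 1.69 to 2.80 on the log2 scale in the graft libraries and 1.52 in P-SSC 4, but −1.81 to −1.51 in the other 5. A difference between graft BM-MSCs and BM-MSCs cannot be told apart from this split, while P-SSCs lay on both sides of it. In a fit with the split as a term, that term is therefore set by P-SSC 4 against P-SSC 1 and 2+5 alone. Summed markers of marrow stroma and of periosteum set the groups apart by their labels, but marrow libraries also held blood cell markers. The summed normalized counts of 6 marrow stroma markers were 4579 to 8883 in P-SSCs and at least 667905 in every marrow library, and those of 6 periosteum and adventitial fibroblast markers were 226415 to 443790 in P-SSCs and at most 10778 in marrow. Of the latter, Ctsk overlapped between groups, with means of 6828 in P-SSCs, 4608 in BM-MSCs and 7246 in grafts. The sums of 7 blood cell markers were 644 to 3183 in P-SSCs, 69895 to 216866 in BM-MSCs and 7149 to 90517 in grafts. The part of blood cells in the values was not tested.

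The 5′ regions of Thbs4, Cilp, Cilp2 and Tnmd are shown. In these 4 genes of the list every P-SSC library lay above every marrow library, and marrow was at or close to 0. Each is the 250 bases before the transcription start that RefSeq gives on GRCm38.p6, written 5′ to 3′ on the strand of the gene. Capitals mark E-boxes (CANNTG), the motif that helix-loop-helix proteins such as Scx bind as a class.
Thbs4: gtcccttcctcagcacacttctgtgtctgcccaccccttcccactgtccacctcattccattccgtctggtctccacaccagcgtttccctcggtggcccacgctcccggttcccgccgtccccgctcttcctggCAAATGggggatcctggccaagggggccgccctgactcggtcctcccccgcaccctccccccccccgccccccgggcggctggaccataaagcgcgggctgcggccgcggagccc
Cilp: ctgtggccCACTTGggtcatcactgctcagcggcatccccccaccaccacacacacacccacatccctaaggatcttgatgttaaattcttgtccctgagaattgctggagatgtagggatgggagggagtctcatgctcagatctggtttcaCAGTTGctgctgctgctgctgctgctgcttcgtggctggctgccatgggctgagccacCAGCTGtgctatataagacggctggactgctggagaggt
Cilp2: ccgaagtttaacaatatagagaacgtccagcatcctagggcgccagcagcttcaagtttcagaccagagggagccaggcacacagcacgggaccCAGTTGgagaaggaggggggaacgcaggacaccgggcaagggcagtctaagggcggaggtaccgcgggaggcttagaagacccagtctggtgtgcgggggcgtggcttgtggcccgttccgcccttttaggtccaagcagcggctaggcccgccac
Tnmd: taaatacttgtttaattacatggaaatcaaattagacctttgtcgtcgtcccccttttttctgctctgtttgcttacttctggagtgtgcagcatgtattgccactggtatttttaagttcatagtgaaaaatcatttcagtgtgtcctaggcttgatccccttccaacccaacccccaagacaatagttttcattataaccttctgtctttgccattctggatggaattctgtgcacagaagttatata
The positions are chr13:92794819-92795068 (minus strand) for Thbs4, chr9:65264930-65265179 (plus strand) for Cilp, chr8:69887393-69887642 (minus strand) for Cilp2 and chrX:133850758-133851007 (plus strand) for Tnmd. In the GENCODE M21 annotation of GRCm38 the windows of Thbs4 and Cilp end just before the first base of the gene. The window of Cilp2 lies inside the annotated gene, whose start is further upstream, and the window of Tnmd overlaps the first bases of the gene. Thbs4 has 1 E-box, Cilp 3, Cilp2 1 and Tnmd 0, and 66.0% of 27025 RefSeq promoter windows of that length have at least 1. The narrower E-box CATCTG, searched on both strands, is in none of the 4 windows and in 14.5% of all, and TATAAA, searched in the same way, is in none of the 4 and in 13.0% of all. The GC content of the windows runs from 38.4% in Tnmd to 70.8% in Thbs4, with 56.0% in Cilp and 62.4% in Cilp2. These windows have no motif of those searched in common. The promoter table matched these 4 of the 7 genes.

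The 7 genes split into 3 patterns. Thbs4, Cilp, Cilp2 and Tnmd lay above every marrow library in all 3 P-SSC libraries. They were at or close to 0 in marrow, whether from steady-state femurs or from grafts. Of these, Cilp2 was high in P-SSC 4 only (9947, against 208 and 229 in P-SSC 1 and 2+5). Comp was high everywhere. The transcription factor genes Scx and Mkx overlapped between P-SSCs and BM-MSCs. Scx was at 20.7 or less outside P-SSC 4, and Mkx was at 276 or less in every library.

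**Figure D1:**
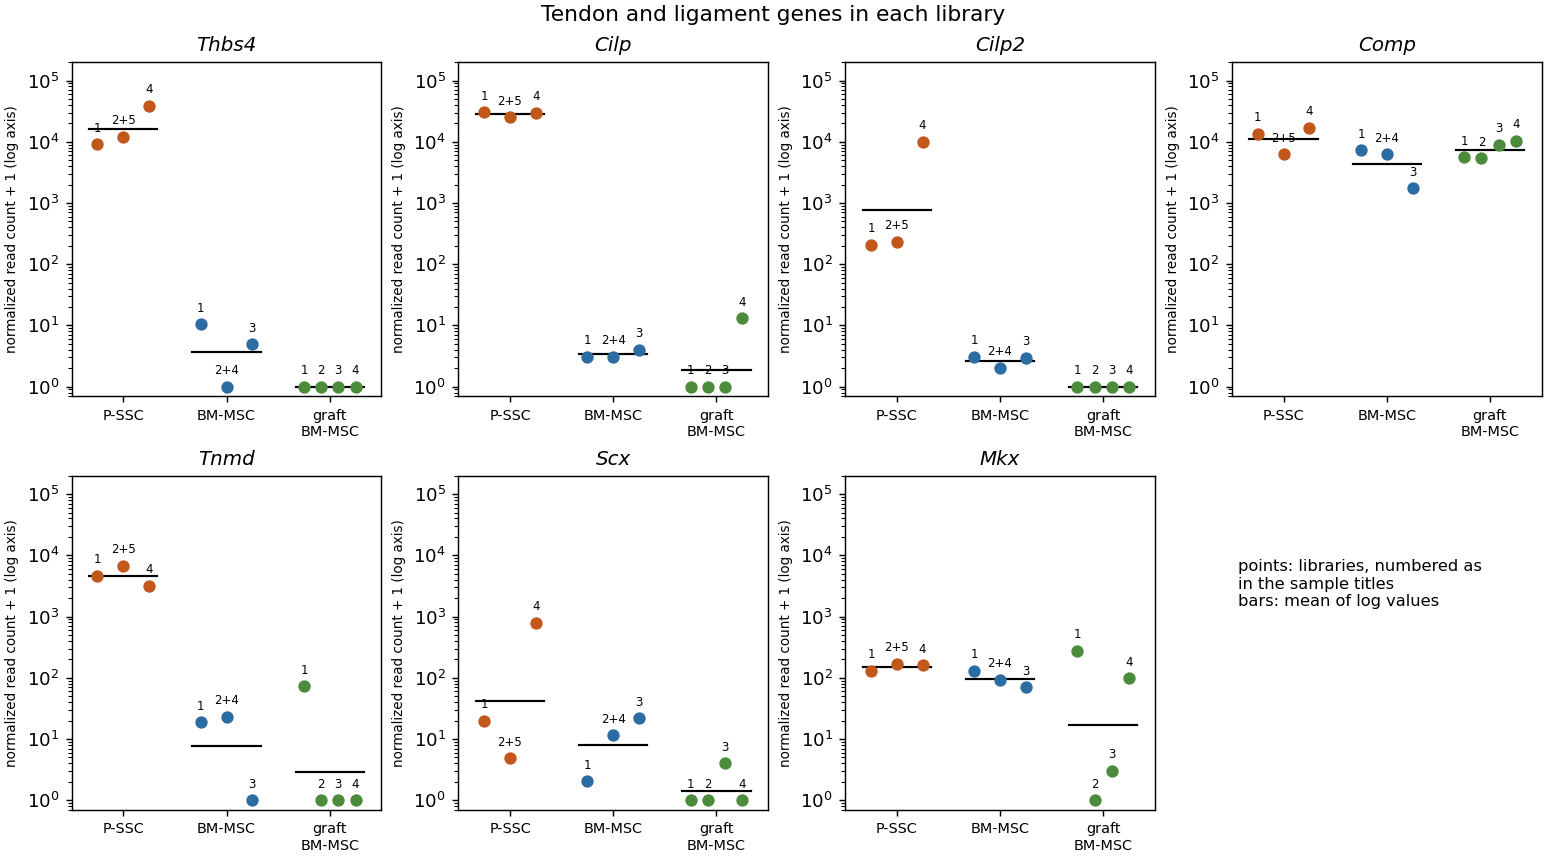
Normalized read count + 1 of each gene on a log axis in the 10 libraries, with the 3 groups on the horizontal axis. Points are libraries, numbered as in the sample titles, and bars are means of the log values. The P-SSC points of Thbs4, Cilp, Cilp2 and Tnmd lie above all marrow points, the 3 groups of Comp overlap, and P-SSC 4 stands above the other P-SSC libraries for Cilp2 and Scx.

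Scx encodes scleraxis, a basic helix-loop-helix factor that marks tendon progenitors. The gene (ENSMUSG00000034161) lies at chr15:76457452-76459458 on the plus strand, on GRCm38. Its normalized count was 18.7 in P-SSC 1, 3.82 in P-SSC 2+5 and 798 in P-SSC 4. It was 1.04, 10.5 and 20.7 in BM-MSC 1, 2+4 and 3, and 0, 0, 3.02 and 0 in graft BM-MSC 1 to 4. The first of these groups rests on 1 library: P-SSC 4 held 823 reads of Scx and the other 2 P-SSC libraries 18 and 3. P-SSCs and BM-MSCs overlapped. The difference between them was 2.40 on the log2(value + 1) scale (SE 1.81, 95% interval −1.60 to 6.41, limma adjusted p = 0.651), and without P-SSC 4 it was 0.28. Graft BM-MSCs overlapped BM-MSCs only through BM-MSC 1, and the difference did not pass the test (−2.50, SE 1.69, 95% interval −6.24 to 1.25, limma adjusted p = 0.380; 0.39 with quantile normalization). Every graft value lay below every P-SSC value, but graft BM-MSC 3 and P-SSC 2+5 both held 3 reads and differed only through their size factors.

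Mkx encodes Mohawk, a homeodomain factor that maintains tendon collagen expression. The gene (ENSMUSG00000061013) lies at chr18:6934518-7004780 on the minus strand. Mkx read 128, 168 and 159 in P-SSC 1, 2+5 and 4, the narrowest spread of the list beside Cilp. It was 128, 90.7 and 69.0 in BM-MSC 1, 2+4 and 3. In grafts it was 276 in graft BM-MSC 1 and 97.5 in graft BM-MSC 4, but 0 and 2.01 in graft BM-MSC 2 and 3. The graft libraries therefore reached from below to above both steady-state groups. No difference passed the test: P-SSCs against BM-MSCs was 0.69 (SE 1.94, 95% interval −3.62 to 5.00, limma adjusted p = 0.989), and graft BM-MSCs against BM-MSCs was −2.47 (SE 1.82, 95% interval −6.50 to 1.56, limma adjusted p = 0.421). These intervals are wide and leave room for large differences in either direction. The 2 low graft libraries were also those with the largest shares of genes at 0, 8.78 and 2.54%, and the part of this in the Mkx values was not tested.

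Tnmd encodes tenomodulin, a membrane protein needed for the proliferation of tendon cells. The gene (ENSMUSG00000031250) lies at chrX:133850980-133865577 on the plus strand. Tnmd stood at 4649, 6695 and 3178 in P-SSC 1, 2+5 and 4. It was 17.8, 22.1 and 0 in BM-MSC 1, 2+4 and 3. In grafts it was 71.2 in graft BM-MSC 1 and 0 in the other 3. All P-SSC libraries lay above all marrow libraries, and the marrow groups overlapped each other. Tnmd was 364-fold higher in P-SSCs than in BM-MSCs as a ratio of means. The difference was 9.25 (SE 1.92, 95% interval 4.99 to 13.52, limma adjusted p = 0.0108), and all 3 P-SSC libraries showed it. This call was lost with edgeR on recovered reads (8.40, adjusted p = 0.0606) and with a pseudocount of 0.1 (10.40, limma adjusted p = 0.0681). Graft BM-MSCs and BM-MSCs did not differ in the test (−1.38, SE 1.80, 95% interval −5.37 to 2.61, limma adjusted p = 0.657), and this difference turned positive with edgeR, DESeq2 and quantile normalization. The 71.2 in graft BM-MSC 1 stood for 126 reads and lay far below the lowest P-SSC value of 3178.

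Thbs4 encodes thrombospondin-4, a pentameric protein of tendon and muscle matrix. The gene (ENSMUSG00000021702) lies at chr13:92751590-92794818 on the minus strand. Its normalized count was 9120, 11970 and 38668 in P-SSC 1, 2+5 and 4. It was 9.40, 0 and 3.95 in BM-MSC 1, 2+4 and 3, which stood for 9, 0 and 4 reads. It was 0 in all 4 graft libraries. Thbs4 was 4478-fold higher in P-SSCs than in BM-MSCs as a ratio of means (12.09 on the log2(value + 1) scale, SE 1.27). Against P-SSCs, grafts were at least 6593-fold lower, with the bound set at 3 reads in the graft library where 1 read counted most. Without P-SSC 4 the bound was 3490-fold and the ratio to BM-MSCs 2371. Marrow libraries of both kinds were at or next to the limit of detection while P-SSC 4 held the highest of the P-SSC values.

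Cilp encodes cartilage intermediate layer protein, an inhibitor of transforming growth factor beta signalling in cartilage and disc. The gene (ENSMUSG00000042254) lies at chr9:65265180-65280605 on the plus strand. Normalized counts of Cilp were 30147, 24905 and 29326 in P-SSC 1, 2+5 and 4, with the lowest coefficient of variation of the list. It was 2.09, 2.11 and 2.96 in BM-MSC 1, 2+4 and 3, or 2, 2 and 3 reads. In grafts it was 0, 0, 0 and 12.1, the last from 14 reads in graft BM-MSC 4. The P-SSC to BM-MSC ratio was 11790 (95% exact Poisson interval for the 7 BM-MSC reads, 5722 to 29325, counting error only), and the log2 difference was 13.03 (SE 1.27). The difference of graft BM-MSCs from P-SSCs was −13.85 on the same scale. The highest marrow value, 12.1, thus stood against a lowest P-SSC value of 24905.

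Cilp2 encodes a close relative of Cilp. The gene (ENSMUSG00000044006) lies at chr8:69880369-69887687 on the minus strand. In P-SSC 1, 2+5 and 4 it had normalized counts of 208, 229 and 9947. It was 2.09, 1.05 and 1.97 in BM-MSC 1, 2+4 and 3, or 2, 1 and 2 reads, and it was 0 in all 4 graft libraries. The P-SSC level was thus carried by P-SSC 4, but P-SSC 1 and 2+5 alone also lay far above every BM-MSC library. P-SSCs exceeded BM-MSCs by 8.20 (95% interval 4.87 to 11.53, limma adjusted p = 0.00517), and without P-SSC 4 by 6.36 (limma adjusted p = 0.000937). Cilp2 met the filter of a mean of 10 through P-SSCs alone, the group where it was high, so a difference was built into its entering the test. Without the filter the adjusted p was 0.00620 with limma. The ratio of means was 2030 (95% exact Poisson interval for 5 BM-MSC reads, 870 to 6251), which fell to 128 without P-SSC 4. The graft libraries lay below the BM-MSC libraries without overlap, but by 5 reads in all, and the difference did not pass the test (−1.41, SE 1.41, 95% interval −4.53 to 1.71, limma adjusted p = 0.554; 0.52 with quantile normalization). It passed when only these 2 groups were fitted (limma adjusted p = 0.00385). By the same bound, grafts were at least 1146-fold lower than P-SSCs, and at least 72.3-fold lower without P-SSC 4.

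Comp encodes cartilage oligomeric matrix protein, the thrombospondin of cartilage and tendon in which mutations cause pseudoachondroplasia. The gene (ENSMUSG00000031849) lies at chr8:70373558-70382066 on the plus strand. Its normalized count was 13336, 6253 and 16737 in P-SSC 1, 2+5 and 4. It was 7286, 6251 and 1724 in BM-MSC 1, 2+4 and 3, and 5569, 5397, 8811 and 10452 in graft BM-MSC 1 to 4. The 3 groups overlapped. P-SSCs exceeded BM-MSCs by 1.38 (SE 0.55, 95% interval 0.16 to 2.61), which had an unadjusted p of 0.0304 with limma but did not pass the adjusted test (limma adjusted p = 0.187). Graft BM-MSCs exceeded BM-MSCs by 0.76 (SE 0.52, 95% interval −0.39 to 1.91, limma adjusted p = 0.382), and the sign turned to −0.11 when the GC split was a term of the fit. That term was set by P-SSC 4 against P-SSC 1 and 2+5, so the turn is no correction of the grafts for GC. Without BM-MSC 3, the lowest library, P-SSCs exceeded BM-MSCs by 0.73 and grafts exceeded them by 0.10. Comp was the only gene of the list that was high in all 7 marrow libraries, where the other 6 did not exceed 276.

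Of the 5 genes tested, limma called 2 (Cilp2 and Tnmd) higher in P-SSCs than in BM-MSCs and gave 3 at an unadjusted p under 0.05. Over all 13644 genes tested 9.15% were called in either direction, 4.57% as higher in P-SSCs, and 18.7% had an unadjusted p under 0.05. All 7 genes passed the filter of a mean of 10, but 4 of them (Thbs4, Cilp, Cilp2 and Scx) had a mean under 10 over the 7 marrow libraries and passed through P-SSCs alone. A difference was thus built into their passing, and the 2 of 5 are not read against the share of all genes. Between graft BM-MSCs and BM-MSCs limma called 0 of 5, where 7.67% of all genes were called, and 0 of 5 at an unadjusted p under 0.05 (25.5% of all genes). edgeR also called 0 of 5, and DESeq2 0 of the 3 to which it gave an adjusted p. Means over the 7 marrow libraries were 0.731 for Cilp2, 5.05 for Scx and 15.9 for Tnmd, which left little room for a difference. The 0 of 5 is therefore not read against the share of all genes either. Without overlap between groups, 4 of 7 were higher in P-SSCs than in BM-MSCs (15.1% of all genes), 1 of 7 was lower in grafts than in BM-MSCs (14.7%) and 5 of 7 were lower in grafts than in P-SSCs (18.5%). The first and last of these counts hold Thbs4 and Cilp, which were chosen by values from the same libraries, and nothing is read from them. The 3 comparisons share libraries, and the values of each are set side by side here without a test of their likeness. These were bulk samples, in which fewer cells of a type and less RNA per cell cannot be told apart.

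**Figure D2:**
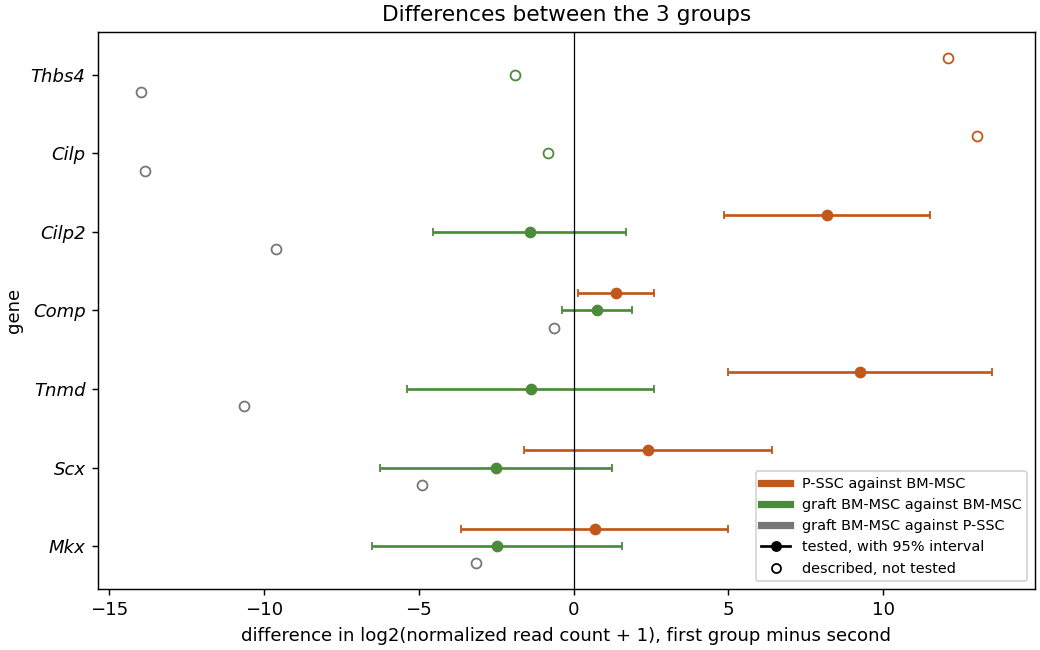
Difference between groups in log2(normalized read count + 1) for each gene, first group minus second, on the horizontal axis. Filled points with bars are tested differences with 95% intervals from limma, and open points are described without a test. The interval of Tnmd for P-SSCs against BM-MSCs lies above 0, as does that of Cilp2, which passed the filter through P-SSCs alone, and all 5 intervals for graft BM-MSCs against BM-MSCs cross 0.

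Levels per kilobase of exon put the genes in order within a group. Ranks are among the 15052 genes matched to the annotation. In P-SSCs, Cilp stood at 6615 normalized counts per kb (rank 155), Thbs4 at 6056 (rank 173), Comp at 4081 (rank 263) and Tnmd at 3578 (rank 306). Each of these 4 overlapped with the next of them over the P-SSC libraries, so their order is not larger than the spread between libraries. Cilp2 stood at 802 (rank 1219), Scx at 136 (rank 4277) and Mkx at 37.0 (rank 7553). Within each P-SSC library Tnmd lay above Cilp2, and Cilp2 above Scx. Over the P-SSC libraries the ranges of Cilp2 and Scx overlapped, as did those of Scx and Mkx. In BM-MSCs Comp stood at 1715 per kb (rank 553) and in graft BM-MSCs at 2547 (rank 318). Mkx came next at 23.5 and 22.9 per kb, and the other 5 were at 13.2 or less in both marrow groups.

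P-SSC 4 differed from the other 2 P-SSC libraries, and by amounts that differed between the genes. Its value over the mean of P-SSC 1 and 2+5 was 70.9-fold for Scx and 45.5-fold for Cilp2. It was 3.67-fold for Thbs4, 1.71-fold for Comp, 1.07-fold for Cilp and Mkx, and 0.560-fold for Tnmd. Scx and Cilp2 have the highest GC content of the list, 61.3 and 65.5%, and Tnmd and Mkx the lowest, 43.0 and 43.2%, with 53.3% in Cilp, 53.9% in Thbs4 and 59.9% in Comp. P-SSC 4 was also the P-SSC library that read GC-rich genes high. The part of GC content in these differences was not tested. Cilp2 is also among the 51 genes over 65% GC by which the split was defined. Graft libraries read GC-rich genes high too, and Cilp2 and Scx were at or next to 0 there, from which nothing on GC content is concluded. Within the libraries that read GC-rich genes low, P-SSC 1 and 2+5 exceeded BM-MSCs by 11.46 for Thbs4, 12.99 for Cilp, 6.36 for Cilp2, 9.53 for Tnmd, 1.09 for Comp, 0.65 for Mkx and 0.28 for Scx. Within those that read them high, the difference of graft BM-MSCs from P-SSC 4 was −15.24 for Thbs4, −13.91 for Cilp, −13.28 for Cilp2, −10.09 for Tnmd, −9.14 for Scx, −3.24 for Mkx and −1.21 for Comp on the log2 scale.

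**Figure D3:**
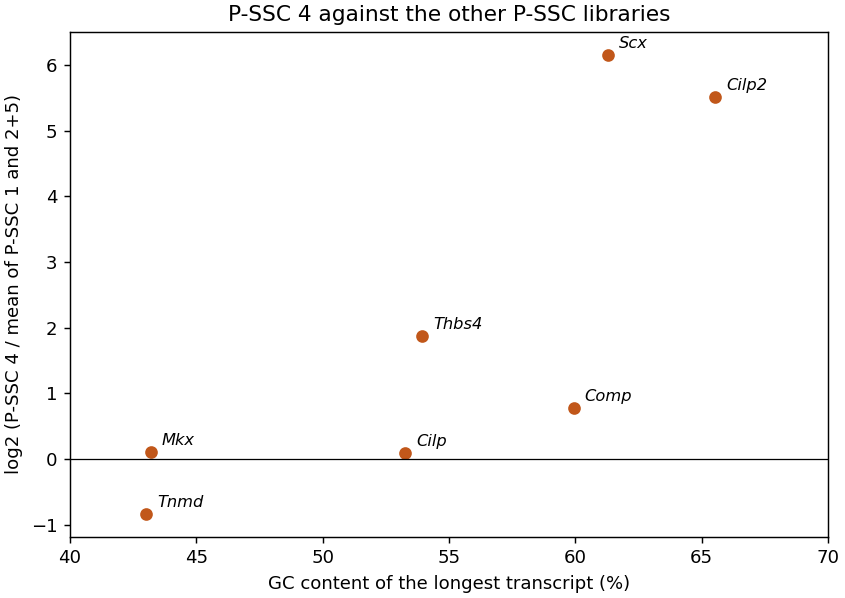
Log2 ratio of P-SSC 4 to the mean of P-SSC 1 and 2+5 (vertical axis) against the GC content of the longest transcript in percent (horizontal axis), with 1 point for each gene. Scx and Cilp2, over 61% GC, stand at 6.15 and 5.51, and the other 5 between −0.84 and 1.87.

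Muscle and cartilage border tendon and share some of these genes, so their markers were read in the same libraries. Of 13 skeletal muscle markers, 9 were in the table. Their summed normalized count was 475 to 2141 in P-SSCs, 173 to 472 in BM-MSCs and 76.5 to 457 in grafts. Acta1, the actin of skeletal muscle fibres, was at 547, 893 and 205 in P-SSC 1, 2+5 and 4 and at 0 in every marrow library. Pax7, the marker of muscle satellite cells, was at 56.1, 204 and 59.1 in P-SSCs and at most 5.92 in marrow. Other members of the list were not higher in P-SSCs: Actn3 had a mean of 111 there and 247 in BM-MSCs (−1.31, limma adjusted p = 0.919), and Mylpf 54.7 and 84.9 (−0.46, limma adjusted p = 0.999). In P-SSCs against BM-MSCs 4 of 9 were called higher, where 4.57% of all genes were, and these 4 (Acta1, Ckm, Tnnt3 and Pax7) were at or close to 0 in every marrow library and likewise passed the filter through P-SSCs alone. The muscle sum was lowest in P-SSC 4, the library in which Thbs4, Cilp2, Comp and Scx were highest. Thbs4, also a gene of muscle matrix, had a higher normalized count than the 9 muscle markers together in each of the 3 P-SSC libraries. By the methods muscle was cut away before the periosteum was scraped off. The part of muscle in the values was not tested, and nothing on it is concluded from the level of Thbs4 beside these markers.

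Cartilage markers were highest in BM-MSCs. The sum of 16 was 3881 to 5787 in P-SSCs, 55158 to 109184 in BM-MSCs and 791 to 5532 in grafts, and 6 of 16 were called lower in P-SSCs than in BM-MSCs, where 4.58% of all genes were. Acan, the large proteoglycan of cartilage, was at 12.5, 206 and 19.4 in P-SSCs, 1040 to 1475 in BM-MSCs and 0 in every graft library. BM-MSC 3 held both the smallest cartilage sum of its group and the smallest Comp value. In grafts 11 of 16 cartilage markers were called lower than in BM-MSCs (5.06% of all genes), while Comp ranged from 5397 to 10452 there and from 1724 to 7286 in BM-MSCs. Col9a1, Matn1 and Hapln1 were at 0 in every P-SSC and graft library, and Snorc had means of 4.85 in P-SSCs and 0 in grafts. Such genes passed the filter through BM-MSCs alone. A difference was thus built into their passing, and the 6 and the 11 of 16 are not read against the share of all genes. The part of cartilage cells in the Comp values was not tested.

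The wider matrix of tendon was read through 32 collagens, small leucine-rich proteoglycans and assembly proteins, of which all were tested. Against BM-MSCs, 11 of the 32 were higher in P-SSCs, 2 were lower and 19 were not called, where 4.57% of all genes were called higher and 4.58% lower. The 11 hold Kera, Tnxb, Angptl7 and Col14a1, which were at or close to 0 in every marrow library and passed the filter through P-SSCs alone. A difference was thus built into their passing, and the 11 are not read against the share of all genes. The median difference was 1.18, and that of all genes tested was 0.00. Col3a1, the collagen of fine reticular fibres, was 579925 ± 188603 (SD, n = 3) in P-SSCs and 23634 ± 11424 (n = 3) in BM-MSCs (4.70, SE 0.62, limma adjusted p = 0.000677). Dcn, the proteoglycan decorin that binds collagen fibrils, was 429028 ± 85284 and 34149 ± 7552 (3.65, SE 0.28, limma adjusted p = 3.1e-05). Bgn, its relative biglycan, went the other way, with 20687 ± 2234 in P-SSCs and 63320 ± 9588 in BM-MSCs (−1.61, SE 0.21, limma adjusted p = 0.000596). The main tendon collagen genes Col1a1 and Col1a2 were not called between P-SSCs and BM-MSCs (−1.31 and −0.92, limma adjusted p = 0.169 and 0.160), nor was Sparc, a collagen-binding glycoprotein (−0.11, limma adjusted p = 0.989).

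Within this matrix list, 4 genes had the pattern of Thbs4 and Cilp, and they were singled out after their values were seen. Kera, the keratan sulfate proteoglycan keratocan, was at 2521, 2813 and 2019 in P-SSCs and 0 in all 7 marrow libraries. Tnxb, which encodes a tenascin of connective tissue, was at 10847 ± 639 in P-SSCs, 0.352 ± 0.609 in BM-MSCs and 0 in every graft library. Angptl7 was at 9211 ± 1266, 2.08 ± 1.07 and 0, and Col14a1, a collagen on the surface of fibrils, was at 18116 ± 1462, 2.43 ± 1.25 and 2.55 ± 2.95 (SD, n = 3, 3 and 4). Each of these 4 was lower in P-SSC 4 than in the other 2 P-SSC libraries.

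**Figure D4:**
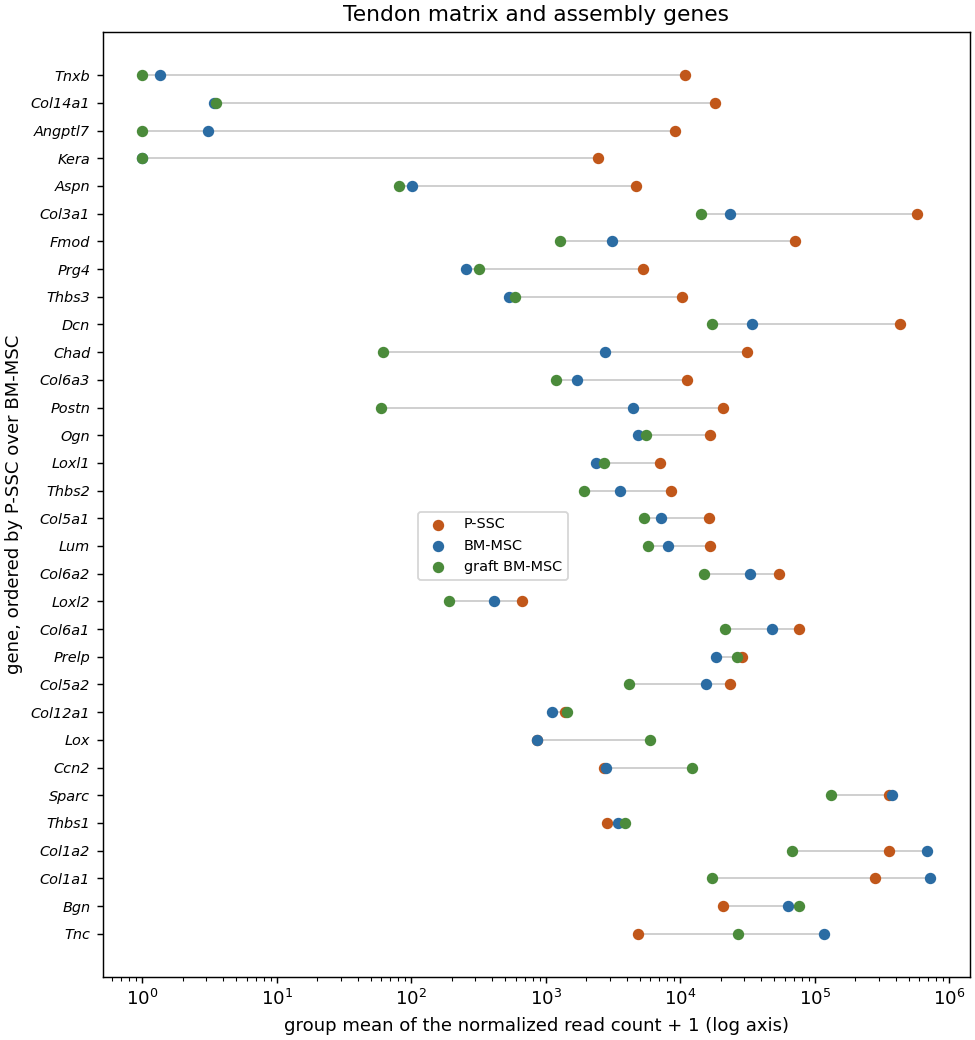
Group means of the normalized read count + 1 on a log axis for the 32 tendon matrix and assembly genes, ordered from top to bottom by P-SSC over BM-MSC. Points are groups (P-SSC n = 3, BM-MSC n = 3, graft BM-MSC n = 4) and grey lines join them. Tnxb, Col14a1, Angptl7 and Kera lie near the left edge in both marrow groups and far to the right in P-SSCs.

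In graft BM-MSCs the same 32 genes gave 0 higher and 9 lower than in BM-MSCs (2.61% and 5.06% of all genes), with a median of −0.996 beside −0.53 for all genes. Col1a1 fell from 721718 ± 320456 to 17109 ± 11325 (−5.48, SE 0.47, limma adjusted p = 0.000799) and Col1a2 from 681765 ± 189607 to 67963 ± 27471 (−3.38, SE 0.33, limma adjusted p = 0.00123). Sparc (−1.53, limma adjusted p = 0.0120) and Dcn (−1.03, limma adjusted p = 0.0422) also fell, and Bgn was not called (0.24, limma adjusted p = 0.455). Postn, picked out because its promoter drove the Cre, was another of the 9: it was 3757 to 5041 in BM-MSCs, 0 in 3 graft libraries and 235 in graft BM-MSC 4. Against P-SSCs, 23 of the 32 were lower in grafts and 4 were higher, with a median of −2.32 beside −0.47 for all genes, where 12.0% of all genes were called lower and 6.08% higher. The 23 also hold Kera, Tnxb, Angptl7 and Col14a1, which passed the filter through P-SSCs alone, so they are not read against that share. The count of 9 became 5 without BM-MSC 2+4. It became 0 when the GC split was a term of the fit, but that term rests on P-SSC 4 against the other P-SSC libraries, and nothing is concluded from this.

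Regulators of the tendon program were read in the same way. Of 19 transcription regulators 17 were tested, and 2 were higher and 1 lower in P-SSCs than in BM-MSCs, where 4.57 and 4.58% of all genes were called. Tcf4, a partner of helix-loop-helix factors, was 3162 ± 509 in P-SSCs and 1254 ± 115 in BM-MSCs (1.33, limma adjusted p = 0.0222), and Id2, an inhibitor of such factors, was 2418 ± 694 and 609 ± 190 (1.99, limma adjusted p = 0.0435). Id4, another inhibitor, was at 3.82 to 14.5 in P-SSCs, 122 to 159 in BM-MSCs and 1606 to 2593 in grafts. The 3 groups of Id4 did not overlap, with −3.75 for P-SSCs against BM-MSCs (limma adjusted p = 0.00378) and 3.82 for grafts against BM-MSCs (limma adjusted p = 0.00584). In grafts 5 of the 17 were higher than in BM-MSCs and 0 were lower (2.61 and 5.06% of all genes), with a median of 1.59 beside −0.53 for all genes. Egr1, an immediate early gene that also acts in tendon, was at 878 to 1286 in BM-MSCs and 15279 to 72136 in grafts (5.39, limma adjusted p = 0.00401), and its relative Egr2 (2.35, limma adjusted p = 0.0282) and the Eya2 cofactor gene (2.49, limma adjusted p = 0.0322) were among the 5. Egr1 was also at 36250 in P-SSC 4 against 4233 and 3222 in P-SSC 1 and 2+5.

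The list of growth factors and receptors also held their Smad mediators and the marker gene Tppp3. It gave 2 higher and 1 lower of the 17 tested (of 20) in P-SSCs against BM-MSCs, beside 4.57 and 4.58% of all genes. Tppp3, a marker of tendon sheath progenitors, had the widest difference of these, 39352, 54536 and 39153 in P-SSC 1, 2+5 and 4 against 108 to 411 in BM-MSCs (7.95, SE 1.40, limma adjusted p = 0.00393) and 0 to 92.8 in grafts. Tgfbr2, a receptor of transforming growth factor beta, was higher in P-SSCs (2.59, limma adjusted p = 0.00977), and Bmp4, a ligand of the same family, was lower (−2.70, limma adjusted p = 8.0e-05). In grafts against BM-MSCs 1 was higher and 1 lower, beside 2.61 and 5.06% of all genes. Smad4, the common mediator of this family, was 2165 ± 803 in grafts and 178 ± 91.4 in BM-MSCs (3.61, limma adjusted p = 0.00301). Gdf5, a ligand of joints and tendons, was 0 in all 4 graft libraries and 33.1 ± 18.9 in BM-MSCs (limma adjusted p = 0.0264). Its mean over all libraries was 13.0, and 10.3 in P-SSCs, so it met the filter of 10 mainly through BM-MSCs, where it was high. A difference was thus partly built into its passing. Counted together, 7 of the 34 genes on the lists of regulators, factors and receptors were called between grafts and BM-MSCs. This became 12 without P-SSC 4, 4 without BM-MSC 1, and 3 without BM-MSC 2+4 or without BM-MSC 3. It was 0 with the GC split as a term, which was again set by P-SSC 4 against the other P-SSC libraries.

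The genes most like each member over the 10 libraries were found by Pearson's r of log2(value + 1) among 9540 genes with a mean of at least 100. Libraries share depth, group and GC bias, so these values of r are descriptions. C7, a complement component, was nearest to Thbs4 (r = 0.998), before Wnt2 and Nox4 (0.996 each). C7 was at 11015 in P-SSCs, 5.51 in BM-MSCs and 0 in grafts. Daglb (0.995), Clec3b (0.992) and Necab3 (0.991) were nearest to Cilp, and Islr2 (0.988), Sgsm2 (0.977) and Ppl (0.973) to Cilp2. A high r does not mean a difference of the same size: Daglb was at 2717 in P-SSCs, 588 in BM-MSCs and 540 in grafts. Tnmd was followed by Ablim1, Il33 and Galnt16 (0.991 each), with group means of 3868, 33.2 and 50.5 for the alarmin gene Il33. Scx and Comp had looser company, with 2610507B11Rik (0.960), Hspa1b (0.928) and Col5a1 (0.868) for Scx and Fzd2 (0.885), Tmem204 (0.884) and Ndufa4l2 (0.880) for Comp. Zzef1 (0.987), Tspyl3 (0.984) and Fbxo34 (0.981) were nearest to Mkx.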

How the data were processed

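RNA of sorted CD51+CD200+ cells was sequenced in 10 libraries. The deposited table holds, for 15078 genes, a signal value made by the authors with DESeq2: the read count of a gene divided by the size factor of its library. The study's methods name STAR on GRCm38, while the submitters' processing notes list GRCm39, FastQC 0.11.5, cutadapt 1.15, STAR 2.5, featureCounts (Subread 1.4.6) and DESeq2 1.26.0. Which build made the counts could not be settled, so coordinates and GC content were taken by Ensembl ID from GENCODE M21 on GRCm38 and describe the genes, not the counting. The labels name directional and non-directional library preparation without saying which was used, so reads of overlapping genes on opposite strands may be mixed.

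Values were whole multiples of 1 step per library, and dividing by it gave whole reads for 100% of values (within 0.01 read). These reads gave the depths, floors, fold bounds and Poisson intervals, and were the input of edgeR 4.0.16 (quasi-likelihood test, TMM) and DESeq2 1.42.0. The main test was limma 3.58.1 in R 4.3.3 on log2(value + 1), which understates changes of low genes, with 1 mean per group over all 10 libraries, a trend in the variance and Benjamini-Hochberg adjustment over the 13644 genes with a mean of at least 10 (two-sided, threshold 0.05). The tests were checked on simulated data. p-values measure the spread between these libraries. Floors of 3 reads and Poisson intervals cover counting error only.

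The 7 genes, the lists and the tests were chosen with earlier results of these data known. All 7 genes were named. From each list up to 6 genes were named, those with the highest mean among genes called in P-SSCs or grafts against BM-MSCs, and for each of the 7 genes the 3 most correlated genes with a mean of at least 100. Other genes named from these lists or as relatives (Postn, Kera, Tnxb, Angptl7, Col14a1, Cnmd, Ckm, Tnnt3, Actn3, Mylpf and other thrombospondin genes) were picked after their values were seen. Alternatives were other pseudocounts, filters, scaling, tools, groups in the fit, a replicate block, the GC split as a covariate and each library left out. Analysis also used Python 3.11.15 with pandas 2.3.3, and figures were drawn with matplotlib 3.10.9.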

Additional observations from a re-analysis of the deposited data

Results flagged for a closer look

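Among the graft BM-MSCs, the only group large enough for a check of single libraries, 3 genes of the list had 1 library away from the other 3, which were all at 0. Cilp had a normalized count of 12.1 in graft BM-MSC 4, Tnmd had 71.2 in graft BM-MSC 1 and Scx had 3.02 in graft BM-MSC 3. In each the gap to the nearest library was the whole range of the group. These were 3 flags over 24 genes, of which Thbs4, Cilp2 and Gdf5 were at 0 in every graft library and could not be flagged. Chance alone flags about 1 in 20 groups of normally distributed values, a rate that does not hold for groups made mostly of zeros. A lone library above 3 libraries at 0 is always flagged by this check. The libraries were different ones in the 3 cases, and the value of Scx stood for 3 reads.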

How the results depend on the processing

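Beside the values reported, 154 alternative values of counts and summaries stayed within their limits and 26 did not, and of the single genes 181 kept their direction and call. Higher calls among the 5 genes tested in P-SSCs against BM-MSCs went from 2 to 1 with a pseudocount of 0.1, with edgeR and with DESeq2, which gave an adjusted p to 3 of them. Each library left out in turn kept 2. Between grafts and BM-MSCs the count went from 0 to 1 (Cilp2) when only these 2 groups were fitted, and it stayed at 0 without any 1 library. The mean log2 difference of the 7 genes between grafts and P-SSCs, a description since Thbs4 and Cilp were chosen by this comparison, was −8.11. It was −10.26 with a pseudocount of 0.1, −6.58 with 5, −6.81 with quantile normalization, −9.44 with the GC split as a covariate and −8.51 to −7.44 with 1 library left out. The cause was not tested, except that a larger pseudocount shrinks differences of genes near 0.

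List counts moved as well. For the matrix list in P-SSCs against BM-MSCs (13 called) the range with 1 library left out was 12 to 17. For the lists of regulators, factors and receptors (6 called) it was 4 to 7, and the count was 10 with DESeq2 and 10 with only the 2 groups. In grafts against BM-MSCs the matrix list (9 called) gave 5 to 11 with 1 library left out, the lowest without BM-MSC 2+4, and 0 with the GC split. The regulators there (7 called) gave 3 to 12 with 1 library left out, 3 with edgeR and 0 with the GC split. In grafts against P-SSCs the matrix list (27 called) gave 22 to 28, and the regulators (9 called) gave 6 to 13, and 5 with the GC split.

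Signs turned only for differences that did not pass the test. In grafts against BM-MSCs these were Cilp2 (0.52), Tnmd (0.70) and Scx (0.39) with quantile normalization, Tnmd with edgeR (0.46) and DESeq2 (0.41), and Comp (−0.11) with the GC split. Quantile normalization moved the median difference of all genes from −0.53 to −0.17 in that comparison and from −0.47 to −0.02 in grafts against P-SSCs, while higher and lower calls went from 356 and 690 to 588 and 435 in the first and from 830 and 1634 to 1247 and 1241 in the second. edgeR called 316 genes and DESeq2 1947 between grafts and BM-MSCs, 619 and 1515 between P-SSCs and BM-MSCs, and 1531 and 2908 between grafts and P-SSCs, beside 1046, 1248 and 2464 with limma.

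The deviations of libraries with the same number had r of −0.019 to 0.030. The pools P-SSC 2+5 and BM-MSC 2+4 were not counted among these pairs, although their labels share a number. They had r = 0.081, beside 0.070 for P-SSC 4 and BM-MSC 1, whose labels share none. With so few libraries per group these values cannot show whether equal numbers mark the same mice, and no conclusion is drawn from them. With the replicate block, calls among the 5 genes in P-SSCs against BM-MSCs went to 0 (Cilp2 7.96, adjusted p = 0.231; Tnmd 9.18, adjusted p = 0.182), and the difference of Mkx turned to −1.28 there and that of Tnmd to 0.29 in grafts against BM-MSCs. The block left 1 matrix gene and 0 regulators in P-SSCs against BM-MSCs, 1 and 0 in grafts against BM-MSCs, and 11 and 2 in grafts against P-SSCs. Over all genes it left 54 calls in P-SSCs against BM-MSCs and 3 in grafts against BM-MSCs, beside 1248 and 1046 without it. Several labels, such as 2+4 and 2+5, belong to a single library, so this fit has little left to estimate the spread from. The lost calls are not read as an effect of pairing. Folds of Thbs4 and Cilp2 without P-SSC 4 were added after seeing the data. Depth limits what can be said of marrow values of Thbs4, Cilp, Cilp2 and Scx, which rest on a few reads, and the number of libraries limits Mkx, Scx and Tnmd.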

Other observations

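Relatives of the 7 genes, picked after their values were seen, did not all share the pattern of the genes themselves. Of the other thrombospondin genes, Thbs3 was at 8310 to 13081 in P-SSCs, 349 to 781 in BM-MSCs and 209 to 1140 in grafts, and it was higher in P-SSCs than in BM-MSCs (4.33, SE 0.58, limma adjusted p = 0.00073). Thbs2 was at 7178 to 10474, 1894 to 4748 and 1293 to 2703, and narrowly missed the threshold between P-SSCs and BM-MSCs (1.33, SE 0.38, limma adjusted p = 0.055). Thbs1 overlapped between all groups, with group means of 2849 ± 2030, 3470 ± 1020 and 3877 ± 2154 (SD, n = 3, 3 and 4).

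Cnmd encodes chondromodulin, the cartilage relative of tenomodulin. It was at 503, 47.1 and 164 in P-SSC 1, 2+5 and 4, at 2952, 2323 and 753 in BM-MSC 1, 2+4 and 3, and at 0 in all 4 graft libraries. Its P-SSC values lay below its BM-MSC values, where those of Tnmd lay above them, but the difference did not pass the test (−3.45, limma adjusted p = 0.121). Grafts were lower than BM-MSCs (−10.76, SE 1.12, limma adjusted p = 0.00151).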
